A study of Mus musculus with 4 samples.

Results

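UDP-glucuronosyltransferases of the Ugt2 family are membrane enzymes of the endoplasmic reticulum. They transfer glucuronic acid from UDP-glucuronate to lipophilic compounds such as steroids, bile acids and drugs, and the more soluble products leave the hepatocyte for bile or blood. The mouse genes lie side by side on chromosome 5 as copies of one another, and the liver is a main site of their expression. The 8 genes described here (*Ugt2b1*, *Ugt2b5*, *Ugt2b34*, *Ugt2b35*, *Ugt2b36*, *Ugt2b37*, *Ugt2b38* and *Ugt2a3*) were taken by symbol from the 35739 genes of the expression table. *Ugt2b38* was chosen by its TPM difference between the genotypes in these 4 libraries and the others as its paralogs with their TPM known, so the differences are given as a description without a test.

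*Usp21* encodes a deubiquitylating enzyme, and the question put to these libraries was which hepatic transcripts depend on it in knockout (KO) against wild-type (WT) mice. The KO mice carried a constitutive deletion of exons 3 and 4 and were littermates of the WT mice on a mixed B6 × 129/Sv background, described as 10 to 11 weeks of age and fed a normal diet. The files held 4 libraries, WT replicates 2 and 3 and *Usp21* KO replicates 1 and 3. Each is taken here as the liver of 1 mouse, which the labels do not state. The labels gave no sex. The abundance of each gene was expressed as TPM, the share of a gene among all transcripts of the library corrected for transcript length, which can therefore be compared between genes of a library. The WT libraries held 4.07 and 6.29 TPM of *Usp21* itself, against 1.64 and 2.93 TPM for KO, a value over the whole gene that does not separate the deleted exons. Between 12876 and 13620 genes were above 0 TPM in a library, and the companion count table held only 102898 to 148164 reads per library. That table listed at 0 in every library 428 of the 686 genes that were at 100 TPM or more in all 4 libraries. It held no read of 5 of the 8 *Ugt2* genes and 1 read in total of each of the other 3, so all their values come from TPM.

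The 8 genes spanned 534 kb of chromosome 5 (GRCm38, chr5:86889767-87424203, GENCODE M21), with 15 annotated pseudogenes between them. Each had 6 exons and a coding sequence of 1590 to 1605 bases, and all except *Ugt2b35* lay on the reverse strand. *Ugt2b38* (chr5:87409942-87424203) was at one end and *Ugt2b34* (chr5:86889767-86906937) at the other. The coding sequence of *Ugt2b38* was 97.0% identical to that of *Ugt2b5* (chr5:87124960-87140318), with 47 of 1593 positions different, no gap, and a longest identical run of 443 bases. It was 94.1% identical to *Ugt2b37* (chr5:87240493-87254804), 87.4% to *Ugt2b36* and 86.6% to *Ugt2b35*. The remaining genes were more distant, at 72.1% for *Ugt2b1*, 71.4% for *Ugt2b34* and 65.4% for *Ugt2a3*. *Ugt2b5*, *Ugt2b37* and *Ugt2b38* thus formed a close trio.

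The differences between *Ugt2b38* and *Ugt2b5* were uneven along the transcript. Exon 1, the longest, differed at 5 of 724 coding bases, and the last exon at 21 of 280. The 60 coding bases below, from exon 6, hold 9 differing bases, the most of any such window within 1 exon, and are shown because only stretches like these can tell the paralogs apart. The capitals mark the differing bases. The sequences are read on the reverse strand from chr5:87410275-87410334 for *Ugt2b38* and from chr5:87125280-87125339 for *Ugt2b5*, coding positions 1467 to 1526.
Ugt2b38: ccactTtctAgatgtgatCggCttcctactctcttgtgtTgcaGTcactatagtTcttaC
Ugt2b5: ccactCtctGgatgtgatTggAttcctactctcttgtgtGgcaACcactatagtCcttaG

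Of all stretches of 31 bases in the *Ugt2b38* transcript, 52.9% also occurred in a transcript of another gene, 44.1% in *Ugt2b5* and 23.2% in *Ugt2b37*. By exon, with untranslated bases included, the share of stretches found in *Ugt2b38* alone ran from 12.01% in exon 1 to 93.8% in exon 6. The corresponding shared percentage over the whole transcript was 56.4% for *Ugt2b5* and 34.4% for *Ugt2b37*, and 11.99% for *Ugt2b36*, 8.05% for *Ugt2a3*, 4.37% for *Ugt2b35*, 2.95% for *Ugt2b34* and 0.826% for *Ugt2b1*. A read from a shared stretch has to be divided between paralogs by estimation, which makes the levels of the trio uncertain and leaves *Ugt2b1* nearly free of this limit. The 876 stretches found only in *Ugt2b38* are what distinguishes its reads.

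**Figure D1:**
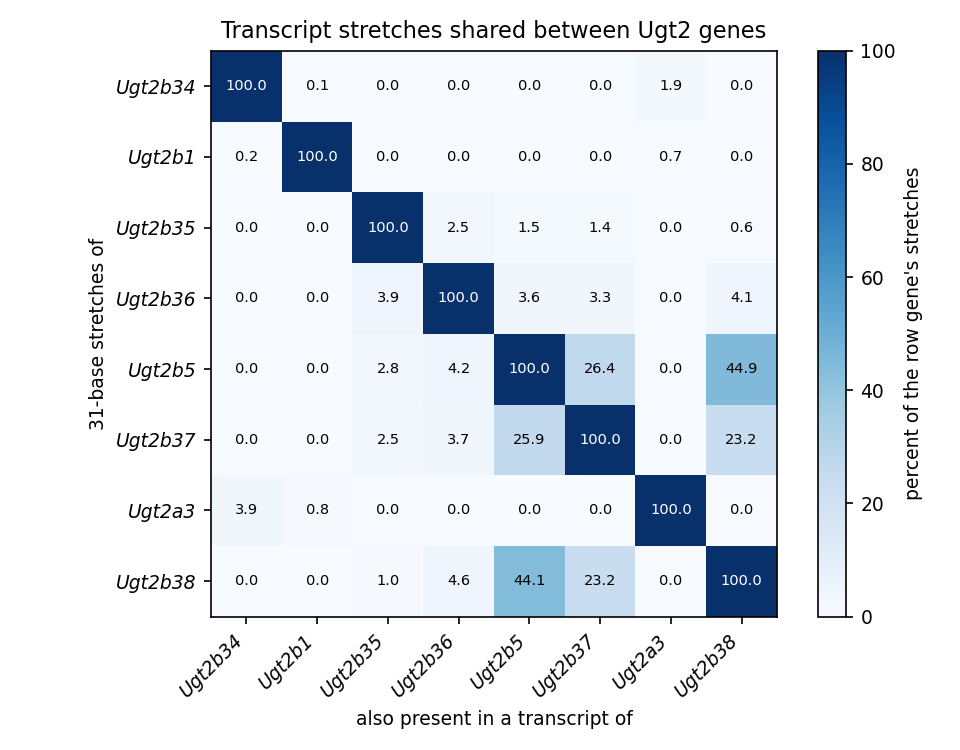
Percent of the 31-base stretches of each gene's transcripts (rows, in chromosome order) that also occur in a transcript of the gene in the column. Off the diagonal, sharing above 20% is seen only among Ugt2b5, Ugt2b37 and Ugt2b38, with 44.1% of the Ugt2b38 stretches in Ugt2b5.

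The close trio also resembled one another upstream of the gene. Over the 250 bases before the RefSeq start (GRCm38.p6), *Ugt2b38* was 84.8% identical to *Ugt2b37* and 81.5% to *Ugt2b5*, against 60.1% to *Ugt2b36*. The windows from 150 to 31 bases before the start are shown, 5′ to 3′ on the reverse strand, because these genes are compared in expression further on. The capitals mark the longest run common to the trio, 38 bases, which *Ugt2b36* lacked. The windows are chr5:87424234-87424353, chr5:87254819-87254938, chr5:87140371-87140490 and chr5:87092586-87092705 in the order given.
Ugt2b38: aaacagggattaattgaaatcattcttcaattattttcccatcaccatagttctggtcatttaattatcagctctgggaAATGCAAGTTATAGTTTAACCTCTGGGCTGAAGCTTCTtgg
Ugt2b37: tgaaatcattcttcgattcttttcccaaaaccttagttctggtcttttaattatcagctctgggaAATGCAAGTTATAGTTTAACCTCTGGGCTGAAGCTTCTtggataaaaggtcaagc
Ugt2b5: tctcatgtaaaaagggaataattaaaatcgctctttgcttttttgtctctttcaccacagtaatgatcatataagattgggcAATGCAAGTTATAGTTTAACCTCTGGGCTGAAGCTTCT
Ugt2b36: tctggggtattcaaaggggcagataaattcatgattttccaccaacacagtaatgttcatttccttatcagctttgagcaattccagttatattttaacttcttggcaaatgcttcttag

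Known motifs of liver factors were searched on both strands of the 8 RefSeq promoters (250 bases before to 50 after the start). The D-box TTATGNAA, the element of the clock output factors Dbp and Tef, occurred in *Ugt2b1* alone of the 8 genes and in 3.38% of all 32851 promoters. It began 59 bases before the start and stands in capitals, on the reverse strand, within chr5:86926545-86926572.
Ugt2b1: ttgacagaacTTACATAAaagcagaaaa
The short motif GTTAAT of HNF1, a hepatocyte factor, occurred in *Ugt2a3* alone, at 54 and 47 bases before the start, and in 7.10% of all promoters. None of the 8 windows held the STAT5 motif TTCNNNGAA (8.30% of promoters), the E-box CACGTG (7.15%), the full HNF1 motif or the direct repeat 4. These are matches of letters and not observed binding. Only the strings given were searched, so variant forms of a site were not counted. The lack of a match therefore does not show the lack of a site.

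In level, the family was led by *Ugt2b5*, *Ugt2b36* and *Ugt2b1*, and this order was the same in all 4 libraries. *Ugt2b5* lay between 612 and 815 TPM, *Ugt2b36* between 465 and 604 TPM, and *Ugt2b1* between 235 and 424 TPM, with no overlap between these neighbours. *Ugt2a3* (135 to 154 TPM) and *Ugt2b34* (119 to 172 TPM) overlapped and exchanged places in KO replicate 3. *Ugt2b35* followed at 59.3 to 111 TPM, *Ugt2b38* at 3.96 to 32.5 TPM and *Ugt2b37* at 0.745 to 2.61 TPM, again without overlap. *Ugt2b5* and *Ugt2b36* together made up 58.5% to 64.5% of the summed TPM of the 8 genes. The first and the last but one in this order, *Ugt2b5* and *Ugt2b38*, are the pair whose coding sequences are nearest to each other.

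**Figure D2:**
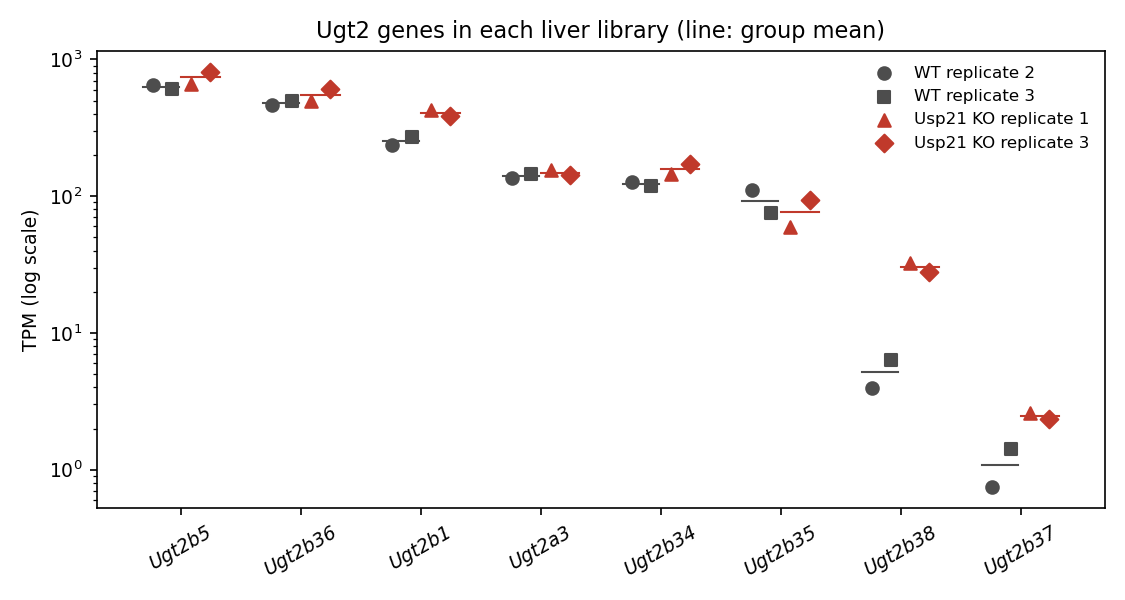
TPM (log axis) of the 8 Ugt2 genes in each liver library, ordered by mean level. Grey points are WT and red points Usp21 KO libraries, with short lines at the group means. Ugt2b38 stands at 3.96 and 6.36 TPM in WT and at 32.5 and 28.0 TPM in KO, while Ugt2b36, Ugt2a3 and Ugt2b35 overlap between genotypes.

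*Ugt2b38* was at 3.96 and 6.36 TPM in WT livers and at 32.5 and 28.0 TPM in KO livers. Both KO libraries were far above both WT libraries. The means were 5.16 ± 1.70 TPM in WT and 30.3 ± 3.13 TPM in KO (SD, n = 2 each), a 5.87-fold ratio. On the scale log2(TPM + 1), used for all differences from here on, the KO livers were higher by 2.37 (SE 0.26). Each SE given with a difference is the moderated standard error of limma. It draws on the variances of other genes and is not the spread of the 4 values alone. It was the only one of the 8 genes with a difference of at least 2-fold on that scale, where 2.59% of the 9581 tested genes (mean of at least 1 TPM) were at least 2-fold higher. In the order of all tested genes from the highest difference down it was number 20. Leaving out each library in turn gave differences between 2.08 and 2.65. In bulk liver RNA a change in the number of cells that express a gene and a change in its RNA per cell cannot be told apart.

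*Ugt2b37* had the same order of libraries at far lower levels. It was at 0.745 and 1.41 TPM in WT and at 2.61 and 2.33 TPM in KO. The KO libraries were both higher, by 0.76 (SE 0.29), or 2.30-fold as a ratio of mean TPM. With a mean of 1.77 TPM it was the one member near the filter of 1 TPM, which all 8 genes passed. On a log2(TPM + 0.1) scale its difference was 1.19, past 2-fold, so for this gene the size depended on the constant added.

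*Ugt2b5* was at 649 and 612 TPM in WT and at 659 and 815 TPM in KO. The lowest KO library lay only just above the highest WT library, and the difference was 0.22 (SE 0.19). The mean was 630 ± 25.9 TPM in WT and 737 ± 110 TPM in KO (SD, n = 2 each). As a percentage of *Ugt2b5* in the same library, *Ugt2b38* was at 0.610% and 1.04% in WT and at 4.93% and 3.44% in KO. The difference in mean *Ugt2b38* TPM, 25.1, amounted to 3.98% of the WT mean of *Ugt2b5*. Summed, the trio gave 653 and 620 TPM in WT against 694 and 845 TPM in KO, a difference of 0.27 (SE 0.19). The sum is free of how reads were divided within the trio. It was below 2-fold, and *Ugt2b5* made up most of it in every library.

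*Ugt2b1*, which shares almost no stretch with the others, was at 235 and 272 TPM in WT and at 424 and 383 TPM in KO. The lowest KO value was well above the highest WT value. The means were 254 ± 26.3 and 403 ± 29.6 TPM (SD, n = 2 each), a ratio of 1.59 and a difference of 0.67 (SE 0.17). In absolute terms this was the largest shift of the family, 150 TPM. *Ugt2b34* was at 127 and 119 TPM in WT and at 144 and 172 TPM in KO, higher in both KO libraries by 0.36 (SE 0.17).

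For the other 3 genes the genotypes overlapped. *Ugt2b36* was at 465 and 500 TPM in WT and at 493 and 604 TPM in KO, a difference of 0.18 (SE 0.19). *Ugt2a3* was at 135 and 146 TPM in WT and at 154 and 142 TPM in KO, a difference of 0.075 (SE 0.16). *Ugt2b35* was the one gene with a lower KO mean, with 111 and 75.0 TPM in WT against 59.3 and 93.9 TPM in KO, a difference of -0.28 (SE 0.30). Its sign rested on KO replicate 1, without which the difference was 0.043. *Ugt2b35* is also the one gene on the forward strand.

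**Figure D3:**
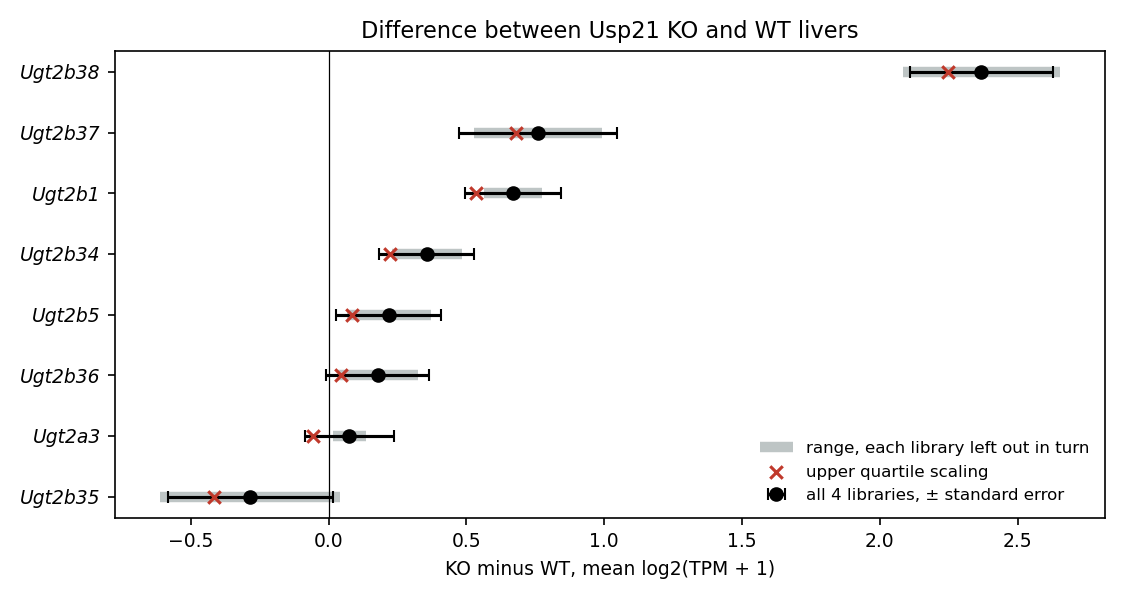
Difference of the mean log2(TPM + 1) between Usp21 KO and WT livers for each Ugt2 gene (black point, bar of 1 moderated standard error from limma). The grey bar is its range when each library is left out in turn, and the red cross its value after upper quartile scaling. Ugt2b38 stands apart at 2.37, and Ugt2a3 changes sign with the scaling, from 0.075 to -0.058.

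Over the family, 5 of 8 genes (*Ugt2b1*, *Ugt2b5*, *Ugt2b34*, *Ugt2b37* and *Ugt2b38*) were higher in each KO liver than in either WT liver, as were 34.4% of all tested genes, and 0 of 8 were lower in each KO liver than in either WT liver, as were 10.9%. The differences were positive for 7 of 8 genes, with a median of 0.29. The median of all tested genes was 0.15. After upper quartile scaling of the libraries the median of all tested genes was 0.036 and 6 of 8 *Ugt2* differences were positive, that of *Ugt2a3* turning to -0.058. *Ugt2b38* (2.25), *Ugt2b37* (0.68) and *Ugt2b1* (0.53) kept the top 3 places there. The summed TPM of the 8 genes was 1727 and 1732 in WT and 1970 and 2239 in KO. *Ugt2b38* supplied 0.229% and 0.367% of that sum in WT and 1.65% and 1.25% in KO, 1.15 percentage points more on average.

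Along the cluster, *Ugt2b38* at one end was followed by *Ugt2a3* with a difference of 0.075 and then *Ugt2b37* with 0.76. The next 3 genes, *Ugt2b5*, *Ugt2b36* and *Ugt2b35*, had lower differences of 0.22, 0.18 and -0.28, and *Ugt2b1* and *Ugt2b34* at the far end stood at 0.67 and 0.36. Of the 38 other genes of the table within 500 kb, 29 were at 0 TPM in all libraries, and 4 were tested. The neighbour past the far end, *Ythdc1*, which encodes a reader of methylated adenosine in RNA, was at 4.52 and 8.59 TPM in WT and at 22.1 and 13.6 TPM in KO. Its difference of 1.33 (SE 0.37) did not pass (adjusted p = 0.464, limma with Benjamini-Hochberg adjustment). The sulfotransferase genes past *Ugt2b38* differed by -0.50 (*Sult1b1*) and 0.21 (*Sult1d1*). *Ugt2a1* and *Ugt2a2*, the next *Ugt2* genes of the cluster and known for expression in olfactory tissue, were at 0 TPM in all libraries, and 5 of 20 pseudogenes there were above 0 in any library.

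**Figure D4:**
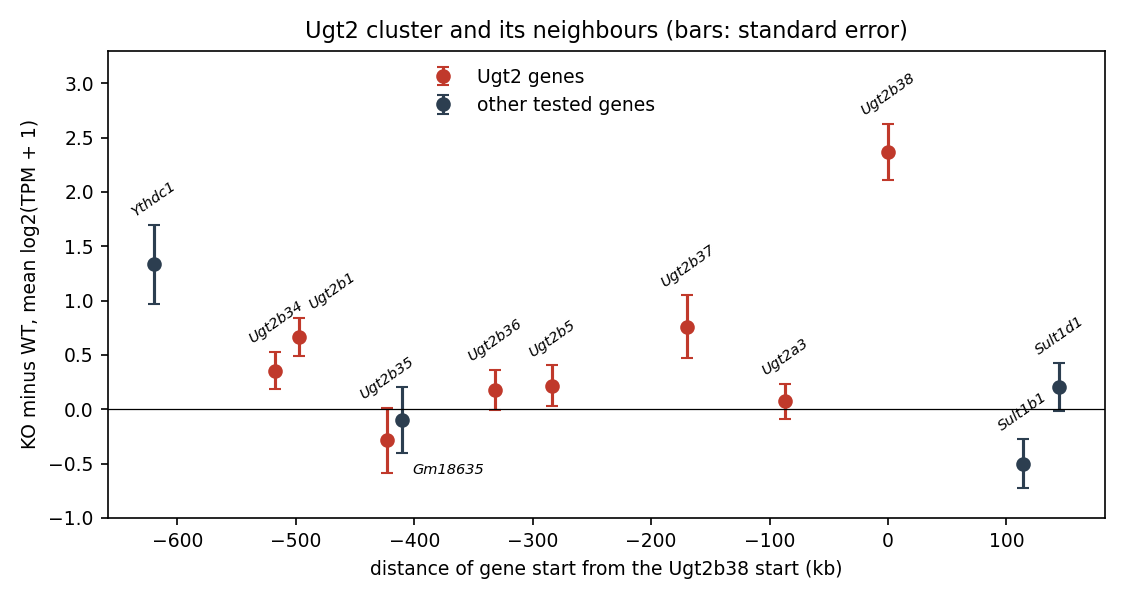
Difference of the mean log2(TPM + 1) between KO and WT livers of each tested gene, by the distance of its start from that of Ugt2b38 in kb. Bars are moderated standard errors from limma. Red points are the 8 Ugt2 genes and dark points the other 4 tested genes, and Ugt2b38, at 0 kb, has the highest difference of the 12 genes shown.

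Over the 4 libraries, the genes whose log2 values, centred on their mean, lay nearest to those of *Ugt2b38* were *Bmal1* (Euclidean distance 0.453), *Snhg4* (0.650), *Cdkn1a* (0.652), *Zc3h7a* (0.723) and *Nedd4l* (0.744), of 9580 other genes. The distance is not scaled, so it takes in the size of the difference by which *Ugt2b38* was chosen, and it is given as a description. *Bmal1*, which encodes a core activator of the circadian clock, was at 0.241 and 0.243 TPM in WT and at 5.89 and 4.05 TPM in KO. It passed the filter of 1 TPM through the KO libraries alone, as did *Snhg4*, listed at 0 in both WT libraries. *Cdkn1a*, an inhibitor of the cell cycle, differed by 2.63. None of these 5 is on chromosome 5. *Ugt2b37* was at place 341 (distance 1.61) and *Ugt2b1* at place 576 (1.72), both with the same order of libraries as *Ugt2b38* and smaller differences. The remaining *Ugt2* genes were between places 2730 and 8778.

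The other genes of glucuronidation were examined as lists. Further lists held regulators, receptor targets, sulfotransferases, sex-biased and sex chromosome genes and cell type markers, 16 lists in all. Of 145 tested genes outside the family on all lists (196 listed), 1 passed an adjusted p under 0.05 (limma, Benjamini-Hochberg adjustment), where 0.0835% of all tested genes did. At an unadjusted p under 0.05 in limma the count was 30, where 10.5% of all tested genes passed. The lists were chosen with earlier results of these data known, so both counts are a description and show no excess. With 2 libraries of each genotype, taken as single mice, these p-values rest on the spread between libraries moderated by the variances of other genes. The prior had 3.62 degrees of freedom. Without this moderation 0 of all tested genes passed the adjusted threshold. An exact permutation test of one gene could not fall below 0.333.

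Among 8 tested genes of the other UGT families the median difference was -0.043 and 0 passed. *Ugt1a1*, the bilirubin enzyme and the most abundant of them, was at 216 and 196 TPM in WT and at 174 and 213 TPM in KO, and its difference of -0.097 turned to 0.051 without KO replicate 1. The summed TPM of the *Ugt1a* genes was 395 and 356 in WT and 331 and 427 in KO, which overlapped. *Ugt1a7c* was at 4.14 and 4.38 TPM in WT and at 7.97 and 20.2 TPM in KO (adjusted p = 0.464, limma with Benjamini-Hochberg adjustment), but *Ugt1a* transcripts share their last exons and the division between them is uncertain.

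The 12 genes that make or use UDP-glucuronate were all tested, with a median of -0.11 and 0 past the adjusted threshold. *Ugdh*, which makes UDP-glucuronate, differed by 0.30. *Gulo*, which diverts glucuronate to vitamin C, was at 137 and 119 TPM in WT and at 99.96 and 73.5 TPM in KO, a difference of -0.57 (SE 0.21). Of 10 tested transporters 0 passed, with a median of 0.035. *Abcc2*, which exports glucuronides to bile, was at 38.3 and 42.7 TPM in WT and at 63.8 and 54.5 TPM in KO, a difference of 0.53 (SE 0.18). *Abcg2* (0.63) and *Abcc6* (0.91) were also higher in both KO libraries, and the bile acid importer *Slc10a1* differed by -0.54. Of 8 tested genes of sulfation, the competing conjugation, 0 passed. *Sult2a8*, a bile acid sulfotransferase, differed by 0.48 and *Sult5a1* by -0.84.

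Of 21 factors known to act on hepatic UGT genes, 1 passed. *Dbp* was at 56.8 and 41.3 TPM in WT and at 4.73 and 4.97 TPM in KO, and fell by 3.08 on the log2 scale (SE 0.23, adjusted p = 0.0193, limma with Benjamini-Hochberg adjustment). In the count table, which held 2 and 1 reads of *Dbp* in WT and 7 and 3 reads in KO, the direction was the opposite. Without any one of the 4 libraries the call was lost in each case (adjusted p from 0.111 to 0.357 with limma). *Tef*, which binds the same D-box, was at 17.0 and 21.3 TPM in WT and at 8.23 and 8.997 TPM in KO, a difference of -1.06 (SE 0.21). The study states no time of day at collection, and its part in the differences of *Dbp*, *Tef* and *Bmal1* was not tested. *Hnf4a* and *Onecut1*, hepatocyte factors, differed by 0.59 and 1.35, with adjusted p = 0.464 for both in limma with Benjamini-Hochberg adjustment. The difference of *Onecut1* was 0.71 without KO replicate 1 and 1.99 without KO replicate 3.

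Of 17 tested targets of the xenobiotic receptors 0 passed, with a median of -0.35. *Por*, the electron donor of the cytochromes P450, was at 175 and 168 TPM in WT and at 81.8 and 81.4 TPM in KO (adjusted p = 0.203, limma with Benjamini-Hochberg adjustment). *Cyp3a11*, the most abundant of them, differed by 0.27 and *Cyp2c55* by 1.20. *Nqo1* differed by -0.99 and *Ces2a* by 0.49. *Cyp4a14* had the lowest difference of the list, -2.63 (SE 1.25). It was at 356 and 21.6 TPM in WT and at 8.76 and 20.7 TPM in KO. Of the 17 targets, 5 were higher in each KO liver than in either WT liver (34.4% of all tested genes were) and 5 were lower (10.9% were). The targets that share their receptors with UGT genes thus had differences of both signs, most of them negative.

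**Figure D5:**
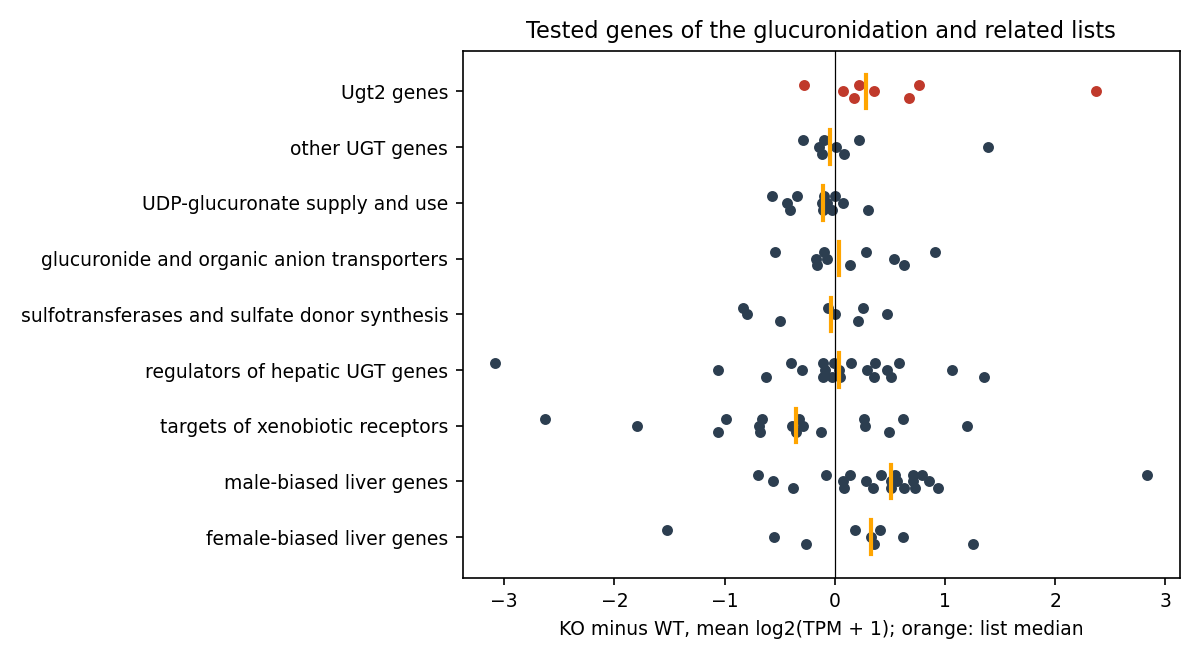
Difference of the mean log2(TPM + 1) between KO and WT livers for every tested gene of 8 lists (dark points) and the 8 Ugt2 genes (red points), with list medians in orange. Ugt2 genes have a median of 0.29 and male-biased liver genes of 0.51, and Dbp is the point at -3.08.

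Sex is a main source of variation of hepatic enzymes in mice, and it was checked because the labels did not give it. *Ddx3y* and *Eif2s3y*, of the Y chromosome, were at 7.14 to 20.5 and 11.9 to 24.4 TPM, above 0 in all 4 libraries. Of 24 female-biased liver genes with values, 4 (*Cyp2b13*, *Sult2a1*, *Sult2a2* and *Sult3a1*) were at 0 in all libraries. Others were above 0, among them *Fmo1* at 129 to 175 TPM and *Cyp2c40* at 1.84 to 12.4 TPM. *Xist*, of the X chromosome, had no value. Of 22 male-biased genes 0 passed the adjusted test, 10 were higher in each KO liver than in either WT liver (34.4% of all tested genes were), 2 were lower (10.9% were), and their median was 0.51. *Cyp7b1* was at 100.1 and 70.3 TPM in WT and at 149 and 174 TPM in KO, a difference of 0.94 (SE 0.23). *Keg1* (0.85), *Cyp4a12a* (0.73) and *C6* (0.63) were also higher in both KO libraries. *Elovl3* had the largest difference of the list, 2.83 (SE 0.88). It was at 87.5 and 10.8 TPM in WT and at 253 and 208 TPM in KO. Among the differences below the median were -0.56 (*Ces2e*), -0.38 (*Susd4*), -0.083 (*Cyp2d9*) and 0.077 (*Mup3*). Of the 9 tested female-biased genes 0 passed, 4 were higher in each KO liver and 2 lower, and their median was 0.33. Among them *Cyp2c40* differed by 1.25, *Fmo1* by 0.41 and *Acot3* by -1.52. Of *Mup20*, the most abundant male-biased gene, the difference of 0.51 turned to -0.040 without WT replicate 2.

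Markers of other liver cells were read in the same libraries. The cholangiocyte markers summed to 14.6 to 16.2 TPM in WT and 24.5 to 38.3 TPM in KO, with *Spp1* at 13.2 and 12.7 against 33.4 and 20.7 TPM and *Krt19* at most 1.28 TPM. The stellate cell and fibroblast markers overlapped in sum (84.0 to 116 against 110 to 166 TPM), as did those of Kupffer cells (102 to 114 against 57.4 to 151 TPM) and sinusoidal endothelium (54.5 to 68.7 against 62.1 to 79.8 TPM). Neutrophil genes stood apart in WT replicate 3, where *S100a8* was at 29.1 TPM, and 6 of 10 markers of pancreas and intestine were at 0 in all libraries. Of the rest of that list, *Fabp2* was at 21.4 to 48.3 TPM and *Cela1* at 28.7 to 42.2 TPM over the 4 libraries. Hepatocyte markers summed to 56102 to 71559 TPM in WT and 48160 to 58738 TPM in KO, with *Alb* the highest. The part of these markers in the *Ugt2* differences was not tested.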

How the data were processed

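RNA-seq was carried out on an Illumina MiSeq from total liver RNA. Each library was taken as 1 mouse, and samples were grouped by the genotype and replicate in their labels. The authors estimated abundances with salmon and deposited TPM for 35739 genes, and the same values as deposited log2(TPM + 1). The authors also counted reads with HTSeq and deposited a signal of TMM-normalized CPM for 55335 genes, from which whole reads were recovered (100% of values within 0.02 reads). The submitters' processing notes name mm10. The annotation release, tool versions and strand setting are not given in the sources used here.

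All genes whose mean reached 1 TPM (9581) were fitted on log2(TPM + 1) with limma 3.58.1 in R 4.3.3 (eBayes with trend, 3.62 prior degrees of freedom, two-sided, Benjamini-Hochberg adjustment), with WT and KO as the only term. The *Ugt2* genes and the gene lists were chosen with earlier results of these data known. Named list genes were those past the adjusted threshold, up to 4 with the lowest unadjusted p under 0.05, and the most abundant. *Tat* (a difference of 0.79) and *Lyve1* (0.98) also met this rule and are not described above. *Ugdh*, *Ces2e*, *Susd4*, *Cyp2d9*, *Mup3*, *Elovl3*, *Cyp4a14*, *Cela1*, *Sult1b1*, *Sult1d1*, *Krt19*, *Ddx3y* and the genes at 0 were added after their values were seen. No p is given for the *Ugt2* genes.

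Of the gene identifiers, 35126 were found in GENCODE M21, which gave coordinates and transcripts. Promoters came from RefSeq (GRCm38.p6), where all 8 genes matched. Coding and upstream sequences were aligned globally with Biopython 1.88 (match 1, mismatch -1, gap opening -4, extension -1). Alternatives used other constants, filters and scalings, each library left out, and edgeR 4.0.16 and DESeq2 1.42.0 on the recovered reads. Tested on simulated data with the 4 libraries, limma recovered 82.0% of 200 genes changed by 3 on the log2 scale and 0.0% of 200 changed by 1, among 9581 genes. TPM does not record depth. A single read of the count data was worth 6.68 to 9.22 CPM, and a count of 0 allows up to 3 reads (counting error only). This floor does not cover other reasons for a 0. Of the 686 genes at 100 TPM or more in all libraries, 428 were at 0 there, and the reason was not tested.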

Additional observations from a re-analysis of the deposited data

How the results depend on the processing

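The difference of *Ugt2b38* was positive under every alternative that gave it a value. It was 1.80 with a pseudocount of 5 instead of 1, and 2.08 to 2.65 with each library left out. Its difference in share of the summed *Ugt2* TPM was 0.955 to 1.35 percentage points with a library left out. With a pseudocount of 0.1, 2 *Ugt2* genes differed at least 2-fold instead of 1, the other being *Ugt2b37*. With *Ugt2b5*, *Ugt2b37* and *Ugt2b38* summed, an alternative chosen after seeing the data, the count was 0. *Ugt2b5* made up most of that sum in every library, so a *Ugt2b38* difference of the size seen could not take it past 2-fold.

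Calls over all tested genes were fewer without the filter on low values (4, against 8), without variance moderation (0, with 806 at an unadjusted p under 0.05), with limma on the CPM table (1) and with DESeq2 (1, with 21 at an unadjusted p under 0.05). edgeR called 12. With a library left out they ranged from 0 to 7. Of the listed genes outside the family *Dbp* was called, and the count was 0 instead of 1 without the filter, without moderation, with limma on CPM, with edgeR and with DESeq2, and 0 to 1 with a library left out. The 1 gene called without WT replicate 2 was *Elovl3*, a male-biased gene, and not *Dbp*. *Dbp* differed by 1.52 (limma on CPM), 1.54 (edgeR) and 1.59 (DESeq2), the opposite direction, from 13 reads in all.

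With upper quartile scaling the sign turned for *Clec4g* (-0.057) and *Rgn* (-0.062). With a library left out the differences ranged from -0.23 to 0.69 for *Clec4f*, -0.31 to 0.45 for *Clec4g*, -0.079 to 0.71 for *Ecm1*, -0.040 to 1.06 for *Mup20*, -0.22 to 0.36 for *Rgn* and -0.25 to 0.051 for *Ugt1a1*. The causes were not tested. Over 467 values of 44 single genes under an alternative, 451 kept their sign and 16, of 9 genes, did not. Besides the genes above these were *Ugt2b35* (0.043 without KO replicate 1) and *Ugt2a3* (-0.058 with upper quartile scaling).

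The count table gave no value for the *Ugt2* genes, which had at most 1 read there, under the floor of 3. Merging genes that share over 50% of their stretches gave no value, since no pair did. No paired analysis was possible because the groups share only replicate number 3. The number of libraries limits all differences.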
